A study of Bos taurus with 15 samples.

Results

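The genes described here are 55 named bovine genes whose transcripts were lower in oocytes collected 19-23 h after oestrus detection than in oocytes collected either 24 h or 2 h before ovulation. They were chosen on this pattern. The level of a gene was taken as log2(CPM + 1), where CPM is the gene's read count relative to the total count of the same oocyte, scaled alike in all oocytes. A member had a mean level of at least 4 at 24 h, was lower by at least 2 after oestrus detection, and was higher again at 2 h. All 55 genes that met the first 2 conditions also met the third. The search ran over 1741 genes that could be named, out of 21218 in the count table, and 1554 of the named genes were left after removing 27 symbol groups such as ribosomal proteins, respiratory chain subunits, proteasome subunits, splicing factors and zinc finger genes. Of these, 772 had a mean level of at least 4 at 24 h. Over the whole count table, 230 genes met the conditions on the levels, and 138 of them could not be named. Names came from the study's list of genes that differed between these dominant follicle (DF) oocytes and oocytes sliced from the ovarian cortex, so the list behind the names was itself drawn up on these oocytes. Because the rule used the time after oestrus detection against both other times, those differences are given as a description without a test.

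Each oocyte came from the DF of a different crossbred beef heifer whose oestrus had been synchronised with a gonadotrophin-releasing hormone (GnRH) analogue, a progesterone-releasing intravaginal device and a prostaglandin F2α analogue. The cumulus cells were stripped by pipetting before freezing. Oocytes named T1.1 to T1.6 were collected 24 h before ovulation (n = 6), those named T2.1 to T2.4 at 19-23 h from the detection of oestrus (n = 4), and those named T3.1 to T3.5 at 2 h before ovulation (n = 5). The methods of the study put the slaughter of the 24 h animals a day earlier in the synchronisation than that of the other animals. They give a second dose of GnRH to a subgroup that they name beside the 2 h animals, and do not say plainly whether any animal of T2.1 to T2.4 received it. The day of slaughter thus cannot be told apart from the time in comparisons with 24 h, nor that dose from the time in comparisons with 2 h. The titles of T2.1 to T2.4 give 19 to 23 h before ovulation, but the treatment field and the methods of the study give the same hours after oestrus detection, and that reading is used. The oocytes came from 2 earlier animal trials, and which trial each belonged to is not given in the sources used here.

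A fully grown oocyte makes little new messenger RNA and relies on transcripts stored during growth. Such transcripts are held back or translated as their poly-A tails are shortened or lengthened, and many are degraded as meiosis resumes. Smart-seq2, the library method used, captures transcripts by the poly-A tail, so a level can reflect both how many copies of a transcript are present and how well their tails are captured, and these were not told apart here.

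The main set was the 11 oocytes that the study kept, with the others (T1.4 from 24 h, and T3.1, T3.3 and T3.5 from 2 h) described separately. Total counts lay between 824854 and 4894970 in the 11 oocytes and between 175263 and 2874041 in the other 4. Of 14 oocyte markers sought, 5 could be named (NLRP5, NOBOX, FIGLA, KPNA7 and OOSP2) and none was at 0 in any of the 11 oocytes. Of 17 cumulus and granulosa markers only STAR could be named, at 80.8 to 376 CPM at 24 h, 188 to 365 CPM after oestrus detection and 54.2 to 111 CPM at 2 h, so it was not low after oestrus detection. Of 12 leukocyte markers 4 could be named, with summed levels of 95.03 to 312, 124 to 344 and 58.6 to 114 CPM at the 3 times, and none of 6 erythrocyte markers could be named. The part of other cell types in the results was not tested.

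The 55 genes were low together in all 4 oocytes after oestrus detection. Their median level was 4.81, 8.84, 6.90, 8.28 and 6.27 log2(CPM + 1) in T1.1, T1.2, T1.3, T1.5 and T1.6. It was 3.37, 4.79, 4.96 and 5.10 in the 4 oocytes from T2.1 to T2.4, and 7.98 and 8.77 in T3.2 and T3.4. T1.1 therefore lay among the oocytes after oestrus detection, while the other 24 h oocytes and both 2 h oocytes lay above them. The mean of these medians was 7.02 ± 1.61 at 24 h, 4.56 ± 0.80 after oestrus detection and 8.37 ± 0.56 at 2 h (SD over 5, 4 and 2 oocytes, as everywhere below).

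**Figure D1:**
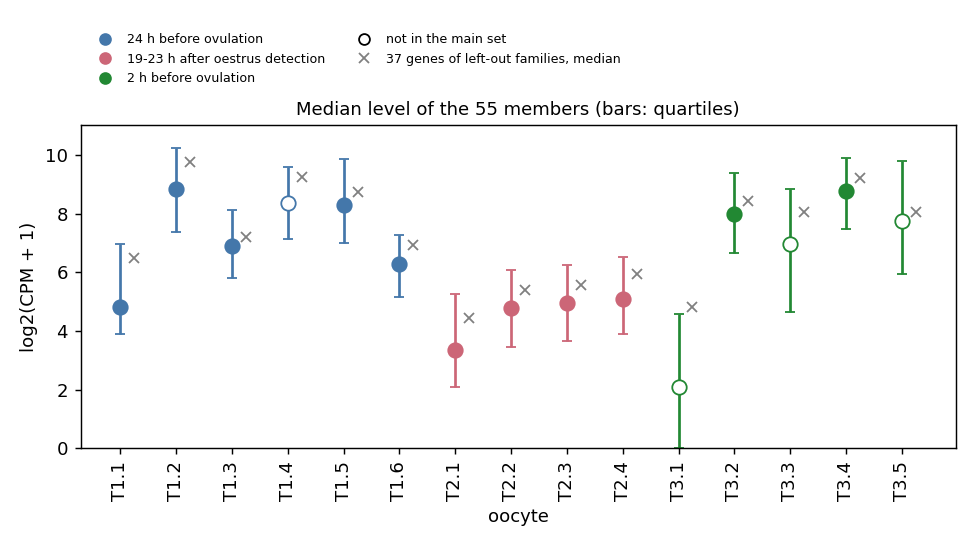
Median level of the 55 genes in each of the 15 oocytes, on the y axis as log2(CPM + 1), with bars for the quartiles over genes and colours for the time of collection. Open circles are the 4 oocytes outside the main set and crosses the median of 37 genes of the removed symbol groups that met the same conditions. The 4 oocytes after oestrus detection lie between 3.37 and 5.10, T1.1 lies at 4.81 and T3.1 at 2.08.

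Expressed as a share of all counts, the 55 genes held 1.12% to 10.9% at 24 h, 0.343% to 0.693% after oestrus detection and 6.67% to 6.79% at 2 h. The median difference over members was -2.53 from 24 h to oestrus (range -3.54 to -2.004), 3.75 from oestrus to 2 h (range 0.39 to 5.15) and 1.29 from 24 h to 2 h (range -2.32 to 1.91), all in log2(CPM + 1). The last of these turned to -0.68 with all 15 oocytes, and was 0.47 with all but T3.1 and 0.74 in the main set without T1.1. Over the 5322 genes with a mean level of at least 4 at 24 h, the same medians were 0.19, -0.46 and -0.17. With TMM factors in place of the total count these became 0.08, -0.14 and 0.04, against -2.63, 4.08 and 1.504 for the members. Under both scalings 54 of 55 members had a higher mean at 2 h than at 24 h. The share of the 5322 genes that did is not given here, and the members vary together, so nothing is read from this count. The 37 genes of the removed groups that met the same conditions had medians of -2.40, 3.69 and 1.26. The choice fixes the direction of the first 2 of these medians, for the members as for the removed groups, and not that of the third.

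All 4 oocytes after oestrus detection lay below all 5 oocytes at 24 h for 26 of the 55 genes, against 3.01% of the 5322 genes. They lay below both 2 h oocytes for 54, against 15.3%. Both contrasts entered the choice of members, so nothing is read from these counts. The overlap with 24 h came mostly from T1.1, which was at or below the highest oocyte after oestrus detection for 26 members (80.3% of the 5322 genes). For 51 members, T1.2, T1.3, T1.5 and T1.6 all lay above that highest oocyte (11.6%), again in a contrast that the choice used.

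**Figure D2:**
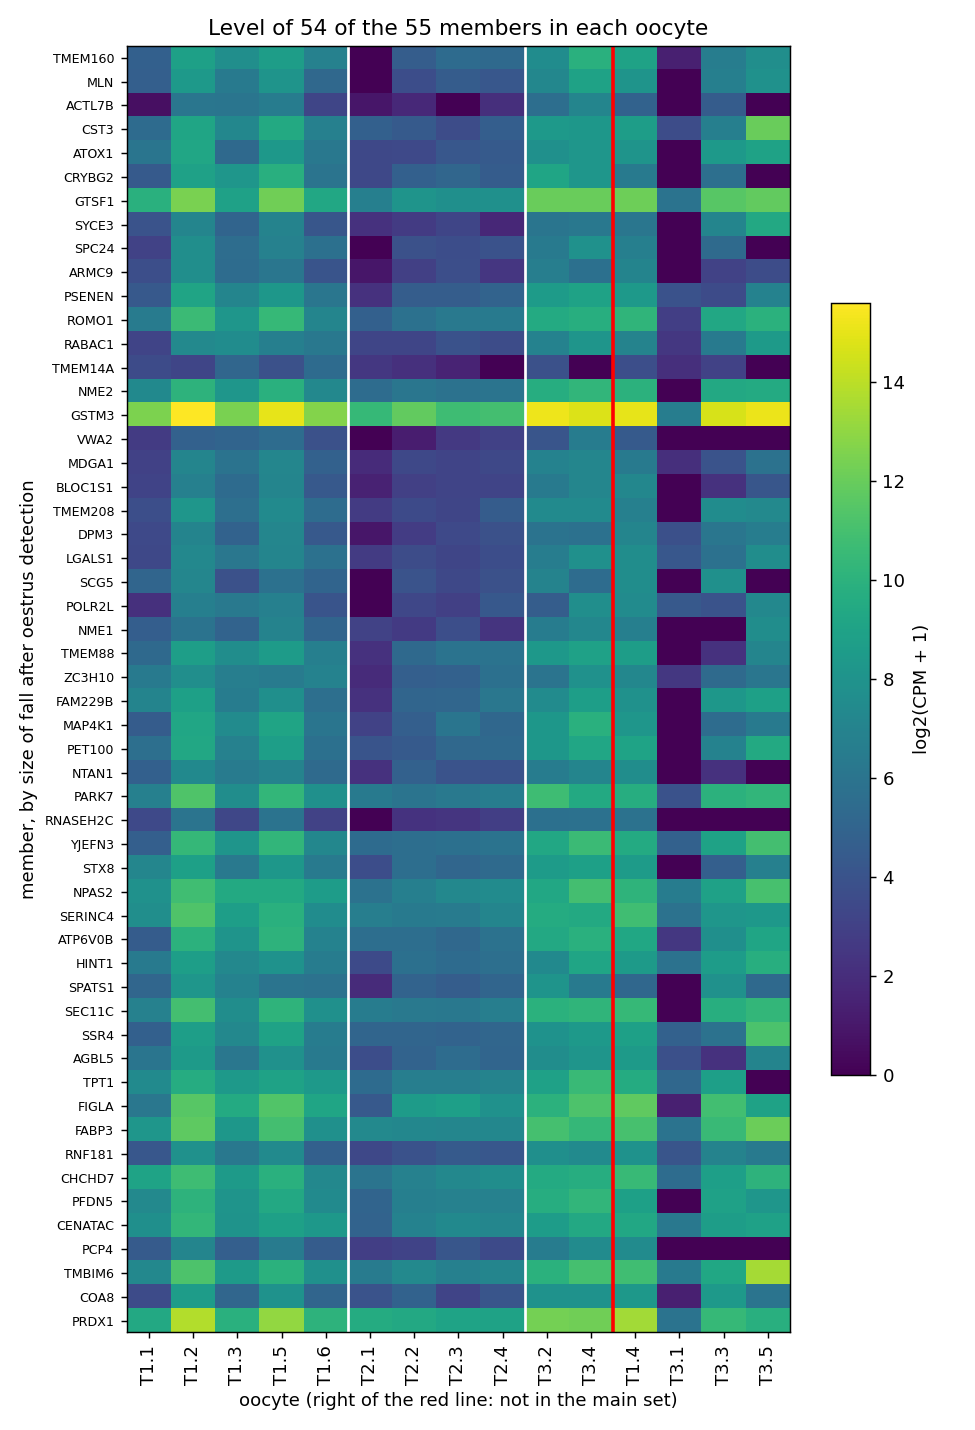
Level of 54 of the 55 genes (rows, ordered by the size of the difference between 24 h and oestrus detection) in each oocyte (columns), coloured as log2(CPM + 1). White lines part the 3 times and the red line sets apart the 4 oocytes outside the main set. The dark columns of T2.1 to T2.4, the darker column of T1.1 and the many values of 0 in T3.1 can be seen.

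The list of redox and metal-handling genes gave 5 members out of 10 genes with a mean level of at least 4 at 24 h. The median difference over those 10 was -1.70. HINT1, a nucleotide-binding protein, was among the 5. Over all 772 named genes open to the rule at that level, 7.12% were members and the median difference was 0.26, and the counts and medians of the lists below stand beside these. In the next paragraphs the values in single oocytes follow the order T1.1, T1.2, T1.3, T1.5, T1.6, then T2.1 to T2.4, then T3.2 and T3.4. Counts were not divided by gene length, so CPM compare oocytes for a gene and not genes with each other. Orders between single oocytes are given as measured, and close values may not be resolved from counting error. GSTM3 (ENSBTAG00000001842), a glutathione S-transferase that conjugates glutathione to reactive compounds, stood at 5881, 50336, 5758, 33006 and 6649.7 CPM at 24 h, 1379, 3626, 1704 and 1979 CPM after oestrus detection and 38250.5 and 27509.6 CPM at 2 h. Within the main set, all oocytes after oestrus detection lay below all others. Its mean level was 13.67 ± 1.52 at 24 h, 10.99 ± 0.60 after oestrus detection and 14.99 ± 0.34 at 2 h. GSTM3 alone held 5.03% of all counts in T1.2 and 3.83% in T3.2, and 0.138% to 0.363% in T2.1 to T2.4.

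PRDX1 (ENSBTAG00000003642), a peroxiredoxin that reduces hydrogen peroxide, had 684, 14499, 962, 8457 and 1069 CPM at 24 h, 770.2, 679, 519 and 501 CPM after oestrus detection and 5242 and 4730.1 CPM at 2 h. It was the member nearest the limit of 2, with a difference of -2.004, and T1.1 lay below T2.1. The 24 h oocytes were spread widely, with T1.2 and T1.5 far above T1.1, T1.3 and T1.6. PARK7 (ENSBTAG00000020518), the oxidative stress protein DJ-1, was measured at 111, 2535, 198, 1269 and 227 CPM at 24 h, 81.2, 63.8, 77.1 and 97.9 CPM after oestrus detection and 1722 and 724 CPM at 2 h. ATOX1 (ENSBTAG00000008340), the copper chaperone that passes copper to the transporters of the secretory pathway, showed 67.1, 603, 39.3, 320.3 and 75.2 CPM at 24 h, 9.34, 9.82, 18.2 and 19.9 CPM after oestrus detection and 227 and 291 CPM at 2 h. Neither PARK7 nor ATOX1 overlapped between oestrus detection and the other times, and their differences from 24 h were -2.45 and -3.18. The last member of this list was the histidine triad nucleotide-binding protein HINT1, at a difference of -2.30.

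Mitochondrial import and protein-handling genes gave 4 members out of 18 (CHCHD7, COA8, PET100 and ROMO1), with a median of -0.72 over the 18. Mitochondrial carriers and metabolic enzymes gave 0 of 8, with a median of 0.24. ROMO1 (ENSBTAG00000027361), a small protein of the inner membrane linked to reactive oxygen species, stood at 88.7, 1591, 292, 1384 and 133 CPM at 24 h, 26.1, 54.7, 79.0 and 84.4 CPM after oestrus detection and 749.6 and 866 CPM at 2 h. PET100 (ENSBTAG00000048824), a chaperone for the assembly of cytochrome c oxidase, gave 50.4, 652, 113, 420.4 and 52.1 CPM at 24 h, 15.9, 20.7, 38.3 and 39.0 CPM after oestrus detection and 299 and 594 CPM at 2 h. For both, every oocyte after oestrus detection lay below every other oocyte of the main set. CHCHD7 (ENSBTAG00000049910), a twin CX9C protein of the intermembrane space, was found at 528, 1725, 359, 958 and 155 CPM at 24 h, 64.4, 115, 157 and 200.4 CPM after oestrus detection and 751 and 855 CPM at 2 h. Here T1.6, and not T1.1, was the lowest at 24 h and lay below T2.3 and T2.4. COA8, a further cytochrome c oxidase assembly factor, had a difference of -2.01 and was the next nearest to the limit.

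The list for entry into the endoplasmic reticulum and glycosylation gave 4 members out of 14, with a median of -0.92 over the 14. It also holds TMBIM6, which is described here only as a membrane protein of the reticulum. SEC11C (ENSBTAG00000011954), a catalytic subunit of the signal peptidase, had values of 117, 1960.2, 204, 1149.8 and 230.3 CPM at 24 h, 91.5, 77.8, 73.4 and 100.2 CPM after oestrus detection and 1006 and 1194 CPM at 2 h. SSR4 (ENSBTAG00000021421), a subunit of the translocon-associated protein complex, had 26.8, 433, 155, 496 and 93.3 CPM at 24 h, 32.7, 32.6, 30.1 and 34.8 CPM after oestrus detection and 248 and 328 CPM at 2 h. TMBIM6 (ENSBTAG00000018588), a membrane protein of the reticulum also called Bax inhibitor 1, had 151, 2417, 359, 998 and 228 CPM at 24 h, 88.7, 158, 111 and 135 CPM after oestrus detection and 1009.6 and 2013 CPM at 2 h. The 4 oocytes after oestrus detection agreed closely for SSR4 (5.07 ± 0.08 log2(CPM + 1)), and T1.1 lay below all of them. For TMBIM6, T1.1 lay below T2.2, and for SEC11C there was no overlap. DPM3 (ENSBTAG00000003535), the subunit that anchors dolichol-phosphate mannose synthase in the membrane, was measured at 10.1, 130.2, 28.7, 144 and 19.4 CPM at 24 h, 0.934, 5.96, 10.0 and 13.5 CPM after oestrus detection and 59.6 and 56.5 CPM at 2 h. For DPM3, T1.1 lay below T2.4.

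Vesicle traffic gave 5 members out of 24, with a median of -0.33 over the 24. ATP6V0B (ENSBTAG00000018889), a membrane subunit of the proton pump of acidic organelles, stood at 21.9, 1021, 273, 1080.3 and 118 CPM at 24 h, 48.5, 49.1, 38.3 and 57.5 CPM after oestrus detection and 688 and 965 CPM at 2 h. STX8 (ENSBTAG00000017815), a SNARE protein of endosomes, stood at 141, 459, 77.8, 299 and 84.9 CPM at 24 h, 12.1, 48.0, 33.9 and 41.7 CPM after oestrus detection and 372 and 474 CPM at 2 h. RABAC1 (ENSBTAG00000018633), which binds prenylated Rab proteins, stood at 8.35, 161, 190.1, 107 and 76.4 CPM at 24 h, 8.40, 8.42, 14.4 and 11.6 CPM after oestrus detection and 122 and 275 CPM at 2 h. T1.1 lay below all 4 oocytes after oestrus detection for ATP6V0B, whereas STX8 showed no overlap. For RABAC1 T1.1 had the lowest value, from 29 counts. Its order against T2.1, with 9 counts, and T2.2, with 24 counts, is not resolved. The other members of the list were BLOC1S1, a subunit shared by complexes of lysosome positioning, and TMEM208, a membrane protein of the endoplasmic reticulum, with differences of -2.64 and -2.63. TMEM208 was counted in this list and not in that of the endoplasmic reticulum.

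Translation gave 2 members out of 10 genes with a median of -0.85, protein folding gave 1 of 18 with a median of -0.24, and the ubiquitin pathway outside the removed symbols gave 2 of 18 with a median of -0.38. TPT1 (ENSBTAG00000010156), the translationally controlled tumour protein, was at 177, 792, 353, 515 and 339 CPM at 24 h, 42.9, 102, 99.7 and 125 CPM after oestrus detection and 479.8 and 1527 CPM at 2 h. For TPT1 the oocytes after oestrus detection lay below the others of the main set. It has many processed copies in mammalian genomes, so its counts are uncertain where reads could fall on copies. PFDN5 (ENSBTAG00000008935), a subunit of the prefoldin chaperone that hands new actin and tubulin chains to the folding machinery, was at 163, 1066, 274, 687 and 172 CPM at 24 h, 31.7, 106, 115 and 115 CPM after oestrus detection and 843 and 1236 CPM at 2 h. RNF181 (ENSBTAG00000018286), a RING-type ubiquitin ligase, was at 18.1, 239.5, 74.8, 175 and 26.7 CPM at 24 h, 9.34, 14.4, 20.1 and 18.1 CPM after oestrus detection and 215 and 179 CPM at 2 h. PFDN5 showed no overlap, while for RNF181 T1.1 lay below T2.3.

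Transcription and messenger RNA export gave 1 member of 28, and the median over the 28 was 0.21. POLR2L (ENSBTAG00000031061), a small subunit shared by the nuclear RNA polymerases, was found at 3.46, 107, 76.7, 112 and 15.8 CPM at 24 h, 0, 9.12, 6.90 and 19.0 CPM after oestrus detection and 22.9 and 209 CPM at 2 h. It was one of the more variable members, with a level of 5.22 ± 2.05 at 24 h, 2.66 ± 1.86 after oestrus detection and 6.15 ± 2.21 at 2 h, and T1.1 and T1.6 both lay below T2.4. Nucleotide and one-carbon metabolism gave 2 of 6, with a median of -0.88 over the 6. NME2 (ENSBTAG00000047186) and NME1 (ENSBTAG00000004651) are nucleoside diphosphate kinases, which balance the pools of nucleoside triphosphates. NME2 had 166, 1089, 297, 966 and 153 CPM at 24 h, 44.8, 68.4, 57.1 and 64.5 CPM after oestrus detection and 846 and 1215 CPM at 2 h. NME1 had 24.5, 60.8, 30.6, 123 and 31.5 CPM at 24 h, 7.47, 5.26, 12.5 and 4.17 CPM after oestrus detection and 94.2 and 147 CPM at 2 h. Neither overlapped. They lie next to each other in the RefSeq annotation and have closely similar coding sequences, so reads may have been divided between them. They were the only neighbouring pair among the 55 members, all of which are annotated as protein coding.

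Among oocyte and germ-cell genes, 3 of 16 were members, and the median over the 16 was -0.10. GTSF1 (ENSBTAG00000018085), a zinc finger protein of the piRNA pathway in germ cells, stood at 954, 5636, 478, 4671 and 666 CPM at 24 h, 104, 269.7, 219 and 223 CPM after oestrus detection and 4278 and 4190.2 CPM at 2 h. No oocyte after oestrus detection reached 24 h or 2 h values, and the 2 h oocytes lay close together (12.05 ± 0.02 log2(CPM + 1)). FIGLA (ENSBTAG00000008905), the basic helix-loop-helix factor that drives zona pellucida genes, was measured at 71.7, 3056, 731, 2648 and 565 CPM at 24 h, 19.6, 384, 446 and 234 CPM after oestrus detection and 1024 and 2445 CPM at 2 h. T2.1 stood far below the other oocytes of its group, and the mean level of FIGLA was 9.56 ± 2.18 at 24 h, 7.41 ± 2.07 after oestrus detection and 10.63 ± 0.89 at 2 h, and T1.1 lay below T2.2, T2.3 and T2.4. SYCE3 (ENSBTAG00000046298), a central element protein of the synaptonemal complex, had 15.0, 137, 31.0, 126 and 17.0 CPM at 24 h, 3.73, 5.61, 8.78 and 2.32 CPM after oestrus detection and 64.6 and 74.1 CPM at 2 h, with no overlap.

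Of 4 named genes in a wider cumulus and granulosa list, 2 were members, and the median over the 4 was -1.48. CST3 (ENSBTAG00000000598), the secreted protease inhibitor cystatin C, had 42.6, 566, 149, 699 and 110.3 CPM at 24 h, 26.1, 20.7, 11.3 and 24.1 CPM after oestrus detection and 353 and 309 CPM at 2 h. LGALS1 (ENSBTAG00000015089), the sugar-binding lectin galectin 1, had 9.503, 151, 71.8, 136 and 54.6 CPM at 24 h, 5.60, 11.6, 8.78 and 12.1 CPM after oestrus detection and 98.4 and 226 CPM at 2 h. CST3 did not overlap, and for LGALS1 T1.1 lay below T2.2 and T2.4. Both genes are widely expressed outside the follicle wall. The summed level of the 4 genes of this wider list was 151 to 1099 CPM at 24 h. It was 232 to 432 CPM after oestrus detection and 574 to 590 CPM at 2 h. STAR, the single marker of the stricter list, was at 188 to 365 CPM in the oocytes after oestrus detection. The fourth gene of the wider list, KRT19, was at 4.90 to 62.7 CPM at 24 h, 12.1 to 34.0 CPM after oestrus detection and 0 to 12.0 CPM at 2 h. The lists of ribosome assembly (0 of 11, median -0.06), of actin and the cytoskeleton (0 of 11, median -0.36) and of signalling and kinases (0 of 19, median 0.61) gave no member, and neither did the wider leukocyte list, with 4 of 6 named genes at a mean level of at least 4 at 24 h (0 of 4, median 0.45).

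**Figure D3:**
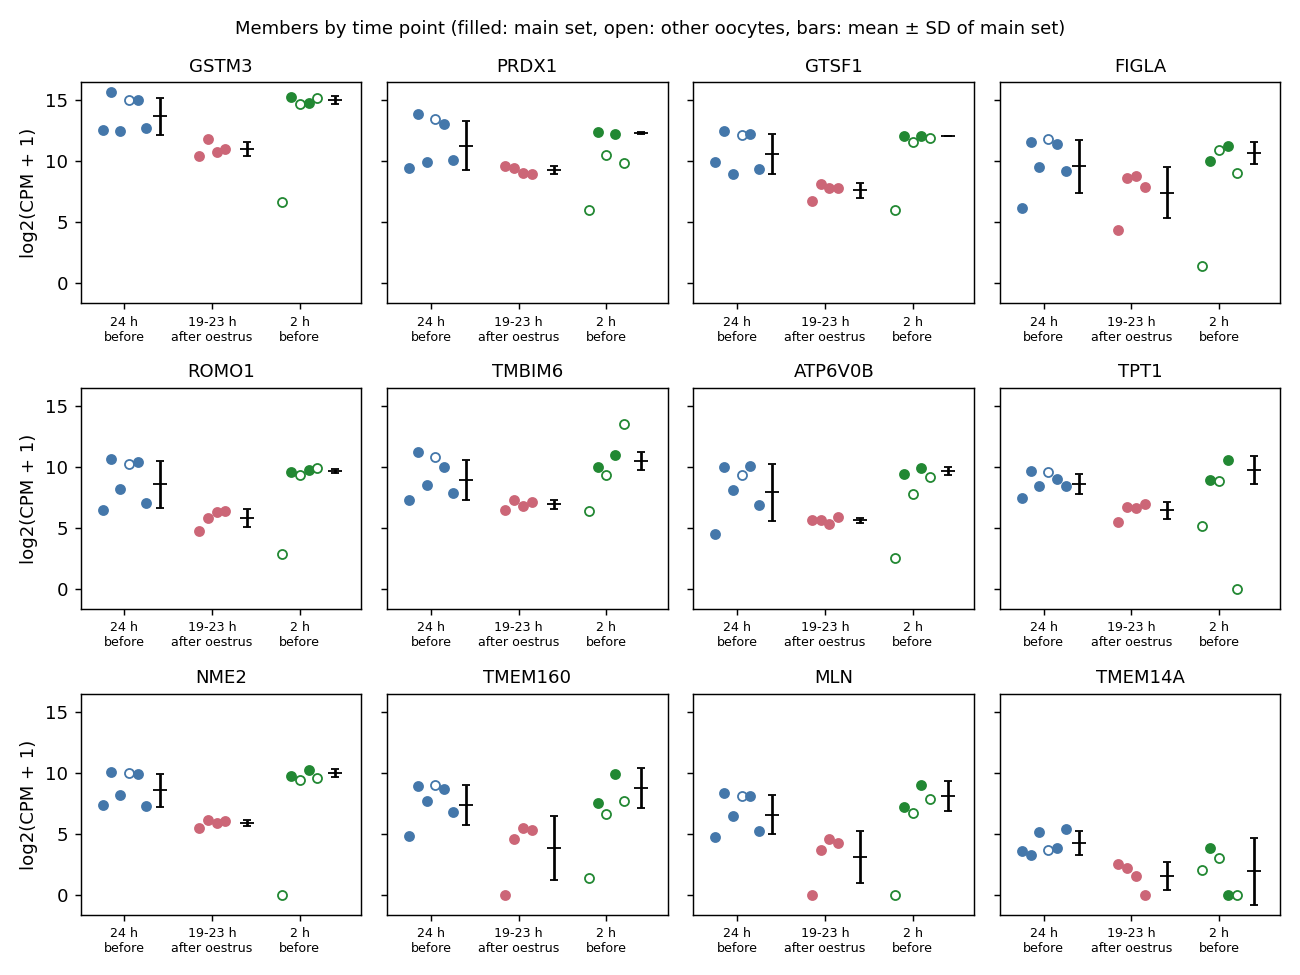
Level of 12 of the named members as log2(CPM + 1) (y axis) by time of collection. Filled points are the oocytes of the main set, open points the other 4 oocytes, and bars the mean ± SD of the main set. In the panels of GSTM3, GTSF1, ROMO1 and NME2 the filled points after oestrus detection do not overlap those at either other time, while in that of TMEM14A one of the filled 2 h points is at 0.

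A further 25 members were in none of the lists. FABP3 (ENSBTAG00000016819), a cytosolic carrier of fatty acids, had 286, 3405, 309, 1926 and 229 CPM at 24 h, 164, 150.4, 139.8 and 147 CPM after oestrus detection and 2018 and 1322 CPM at 2 h. NPAS2 (ENSBTAG00000019697), a PAS-domain transcription factor of the circadian clock, had 232, 1825, 716, 722 and 389 CPM at 24 h, 57.9, 103, 154 and 180.0 CPM after oestrus detection and 651 and 1961 CPM at 2 h. SERINC4 (ENSBTAG00000017211), of the serine incorporator family of membrane proteins, had 204, 2487, 437, 947 and 189 CPM at 24 h, 101, 87.0, 89.7 and 134 CPM after oestrus detection and 762 and 699 CPM at 2 h. For these 3 genes every oocyte after oestrus detection lay below every other oocyte of the main set, and FABP3 varied little after oestrus detection (7.24 ± 0.10 log2(CPM + 1)). The remaining unlisted genes cover varied functions, among them SPC24 of the kinetochore, PSENEN of gamma-secretase, RNASEH2C of ribonuclease H2 and NTAN1, which deamidates N-terminal asparagine, with differences from 24 h of -2.92, -2.89, -2.45 and -2.46. SCG5, a chaperone of secretory granules, differed by -2.60, and AGBL5, a carboxypeptidase that trims glutamates from tubulin, by -2.19. MAP4K1, a kinase best known from blood cells, differed by -2.51, MDGA1, a cell-surface protein of the nervous system, by -2.65, and TMEM88, a membrane inhibitor of Wnt signalling, by -2.54. CENATAC, a protein of minor intron splicing, differed by -2.08, ARMC9, a protein of the cilium base, by -2.90, and ZC3H10, a CCCH zinc finger protein, by -2.53. YJEFN3, FAM229B and SPATS1 differed by -2.44, -2.52 and -2.29. At 2 h the 11 genes from SCG5 to SPATS1 in this account were all higher again, by 2.44 for CENATAC to 4.30 for YJEFN3, and ZC3H10 came back nearly to its 24 h mean (2 h minus 24 h, 0.10).

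The members with the widest differences were TMEM160, MLN, ACTL7B, CST3, ATOX1 and CRYBG2, from -3.54 to -3.01. TMEM160 (ENSBTAG00000015579), a transmembrane protein, had 27.1, 471, 207, 416 and 113 CPM at 24 h, 0, 22.8, 42.6 and 39.9 CPM after oestrus detection and 189 and 969.6 CPM at 2 h. For this gene T1.1 lay below T2.3 and T2.4. MLN (ENSBTAG00000015550), the precursor of the gut hormone motilin, had 25.6, 331, 86.9, 271 and 37.6 CPM at 24 h, 0, 11.9, 22.6 and 18.1 CPM after oestrus detection and 149.9 and 508 CPM at 2 h. ACTL7B (ENSBTAG00000019467), an actin-like protein known from the testis, had 0.576, 69.1, 65.0, 93.6 and 8.49 CPM at 24 h, 0.934, 2.45, 0 and 3.25 CPM after oestrus detection and 48.0 and 135 CPM at 2 h. Part of the width came from counts of 0. T2.1 had no count for TMEM160 and MLN, which allows up to 2.80 CPM (3 counts, counting error only), and T2.3 had none for ACTL7B, which allows up to 1.88 CPM. In T1.1, ACTL7B had 2 counts and lay below T2.2 and T2.4. Its order against T2.1, with 1 count, and T2.3 lies under the floors of 3 counts and is not resolved. CRYBG2 (ENSBTAG00000005629), a beta/gamma-crystallin domain protein, had 20.2, 488, 298, 919 and 63.0 CPM at 24 h, 9.34, 26.6, 35.1 and 22.3 CPM after oestrus detection and 574 and 294 CPM at 2 h, and T1.1 lay below T2.2, T2.3 and T2.4.

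The limit of 2 fell within a run of close values. Just inside were PRDX1, COA8 and TMBIM6 at -2.004, -2.01 and -2.03, and just outside were TIMM10, PPIA and DNAJC15 at -1.96, -1.95 and -1.92. The genes just outside returned in the same way at 2 h, by 3.23, 2.62 and 3.14. The limit thus did not fall in a gap between values.

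TMEM14A (ENSBTAG00000005206), a small membrane protein, was the exception in the second step. It had 10.9, 8.60, 34.8, 13.5 and 42.4 CPM at 24 h, 4.67, 3.51, 1.88 and 0 CPM after oestrus detection and 13.8 and 0 CPM at 2 h. Its mean level was 4.26 ± 0.98 at 24 h, 1.55 ± 1.11 after oestrus detection and 1.94 ± 2.75 at 2 h. T3.4 had no count, which allows up to 1.15 CPM, so the 2 h mean rests on T3.2 alone, and TMEM14A was the only member with a lower mean at 2 h than at 24 h (-2.32).

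The other 54 members moved together across oocytes. The correlation of each member with the median of the others over the 11 oocytes had a median of 0.946, and 54 lay above 0.8, with TMEM14A at 0.154. The genes were chosen to differ between these times and share each library's total count, so this is a description and no test. Among the 5 oocytes at 24 h, whose means also entered the rule, the median correlation was again 0.946, with 45 above 0.8 and TMEM14A lowest at -0.29. The order of the 24 h oocytes was shared, in that T1.1 was the lowest for 43 of 55 members (28.2% of the 5322 genes) and T1.2 the highest for 42 (12.3%). T1.1 had 3472460 counts and T1.2 had 3256291, and the part of depth in this order was not tested. After oestrus detection T2.1 was the lowest for 42 members (37.8% of the 5322 genes), and it had the smallest total of its group, 1071109 counts.

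The time points on either side of the dip were compared with the quasi-likelihood test of edgeR, fitted over all genes. Both the 24 h and the 2 h means entered the rule, so the members' fitted values are given as a description. No gene was called between 2 h and 24 h (0 of 10198, 0%, with limits of 0.05 on the adjusted p and 1.5 on the log2 fold change in either direction), and so none of the 55 members. Without adjustment, 165 genes were higher at 2 h (1.62%) and 762 lower (7.47%) at p under 0.05, and no member was among either. DESeq2 called 349 genes (2.44%), of which 8 were higher at 2 h and 341 lower. The likelihood ratio test of edgeR called 139 (1.36%), of which 13 were higher and 126 lower. Both again called 0 members. Both 2 h oocytes lay above all 5 oocytes at 24 h for 0 members (1.86% of the 5322 genes) and below all 5 for 0 members (7.01%).

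The fitted log2 fold change, 2 h minus 24 h, had a median of 0.70 over the members and -0.21 over all genes tested, and 51 of 55 members were positive. The share of all genes tested that were positive is not given here. The members vary together, so nothing is read from this count or from the counts of positive members below. All 55 members passed the filter on low counts, and 46 had a count in each of the 11 oocytes. The standard error of the fold change lay between 0.67 and 1.46, and for every member the 95% interval covered 0. TPT1 had a log2 fold change of 1.25 (SE 0.67, 95% interval -0.16 to 2.67), and 1 of the 2 oocytes at 2 h lay above all 5 at 24 h. VWA2 (ENSBTAG00000006860), a von Willebrand factor A domain protein, had the highest fold change, 1.27 (SE 1.02), from values of 5.47, 27.9, 32.1, 44.3 and 13.3 CPM at 24 h, 0, 1.403, 5.02 and 6.96 CPM after oestrus detection and 16.6 and 92.5 CPM at 2 h. The next after VWA2 and TPT1 were TMEM160 (1.24, SE 1.06), NME1 (1.23, SE 0.73) and PCP4 (ENSBTAG00000051421), a modulator of calmodulin (1.16, SE 0.83), which stood at 21.6, 136, 24.9, 90.1 and 21.8 CPM at 24 h, 6.54, 7.71, 16.9 and 10.2 CPM after oestrus detection and 93.8 and 182 CPM at 2 h. The lowest were TMEM14A (-1.25, SE 1.46), SERINC4 (-0.33, SE 0.94), DPM3 (-0.23, SE 1.05) and PRDX1 (-0.17, SE 1.1). For GSTM3 the estimate was 0.61 (SE 0.97), and its interval of -1.44 to 2.66 holds both lower and higher levels at 2 h. Single oocytes weighed on these values in both directions. Without T1.2 the median fitted fold change of the members was 1.52, with 54 positive. It was 0.27 (43 positive) without T3.4, 0.42 (44) without T1.6, 0.47 (42) without T1.1, 0.01 (28) with all 15 oocytes and 0.09 (29) with the number in the oocyte's name as a replicate block.

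**Figure D4:**
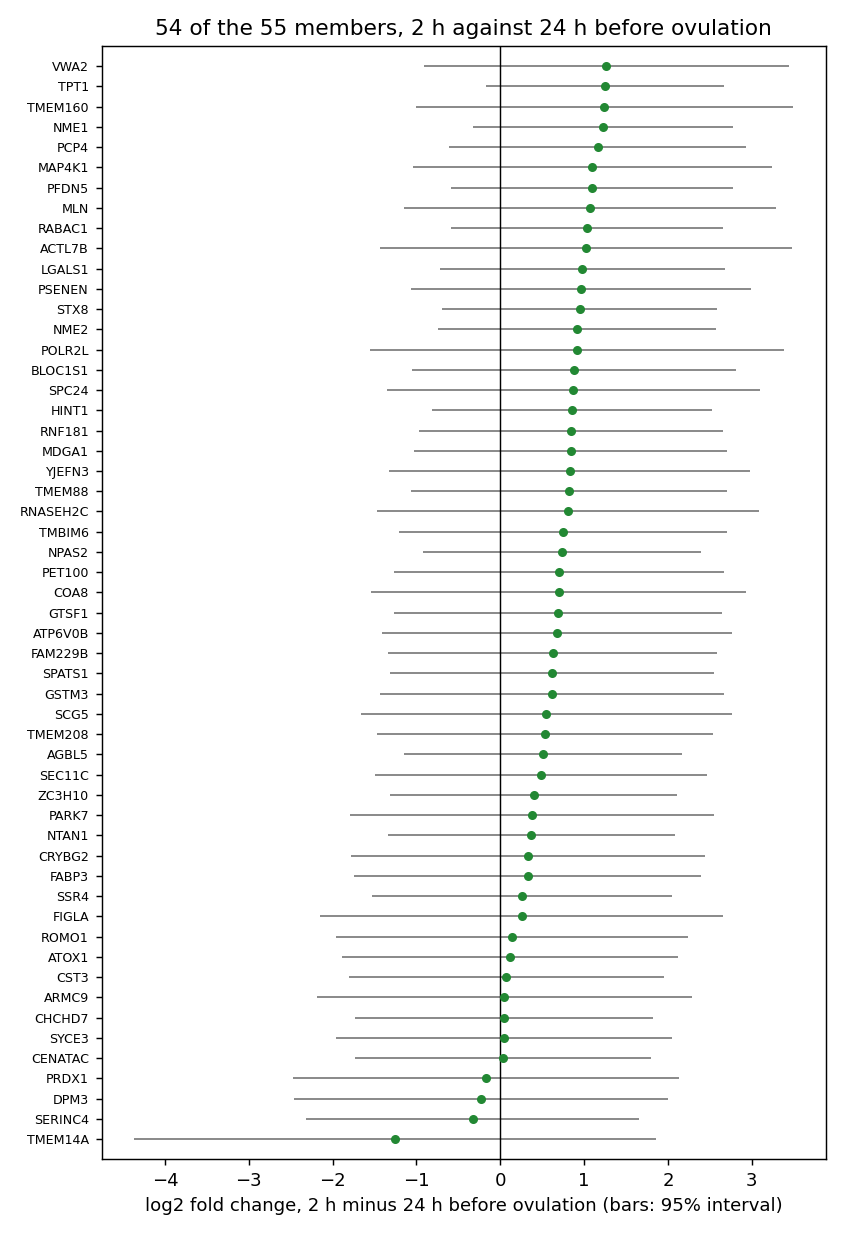
Fitted log2 fold change of 54 of the 55 members (points), 2 h minus 24 h before ovulation, with its 95% interval (bars), from the quasi-likelihood fit. The points run from -1.25 (TMEM14A) to 1.27 (VWA2), most lie above 0 and every bar crosses 0.

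The 4 oocytes outside the main set took no part in choosing the genes, although the oocytes after oestrus detection with which they are compared here did. T1.4, with 2874041 counts, had a median member level of 8.36 and lay above all 4 oocytes after oestrus detection for 55 of 55 members (22% of the 5322 genes lay above and 54.7% below, and 0 members lay below). T3.3, with 271763 counts, had a median of 6.98, with 41 members above (22.2%) and 5 below (60%). T3.5, with 175263 counts, had a median of 7.73, with 44 above (18%) and 4 below (73.3%). In these 3 oocytes most members thus lay on the same side as in the main oocytes of their time. For GSTM3 they had 32779, 25441 and 36745 CPM, and for GTSF1 4502, 3006 and 3743 CPM, all above T2.1 to T2.4.

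T3.1, also labelled 2 h before ovulation and with 620910 counts, had a median member level of 2.08. It lay above the 4 oocytes after oestrus detection for 3 members (16% of the 5322 genes) and below all of them for 35 (66.1%), so the share of members below was near that of all genes. The median level of the 5322 genes was itself 4.56 in T3.1, against 5.72 to 6.501 in the main set and 5.66, 5.09 and 0 in T1.4, T3.3 and T3.5. In T3.1, 24 members had no count, which allows up to 4.83 CPM each. Some of these are counted as below although a value after oestrus detection also lay under that limit, such as SYCE3 at 2.32 CPM in T2.4. Those members are not shown to be lower. GSTM3 stood at 96.6 CPM and GTSF1 at 61.2 CPM, where T3.2 and T3.4 had 38250.5 and 27509.6 CPM of GSTM3. FIGLA stood at 1.61 CPM. With the smaller totals of T3.3 and T3.5, 3 counts correspond to 11.0 and 17.1 CPM, and 4 and 10 members had no count in them. Where values after oestrus detection lay under these limits, the order of such members is likewise not resolved. TPT1, with no count in T3.5, lay below T2.1 to T2.4 there even at that limit.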

How the data were processed

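Messenger RNA of 15 single bovine DF oocytes was measured by Smart-seq2. For trimming, the authors used Trim Galore (version 0.6.6 in the submitters' processing notes, while the methods of the study give another version). Reads were aligned with HISAT2 to the ARS-UCD1.2 assembly and counted in SeqMonk, and the deposited values are raw counts per Ensembl gene. The annotation release, strandedness and removal of duplicates are not given in the sources used here. Without molecular identifiers, floors of 3 counts cover counting error only.

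Gene names came from the study's table of differing genes. Its fold changes and p-values were not used. All 55 member symbols were found in the RefSeq gene table of another assembly (ARS-UCD2.0), which was used only for gene type and neighbours. The 11 oocytes kept by the study, in groups of 5, 4 and 2, were the main set. Levels were log2(CPM + 1) with CPM by column sum.

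Only 2 h against 24 h was tested, on the counts of all genes, with edgeR (version 4.0.16, R 4.3.3), TMM factors, filterByExpr, a fit of the 3 times together, the quasi-likelihood F-test and Benjamini-Hochberg adjustment over all genes. The SE is the absolute log2 fold change over the square root of F. Alternatives were DESeq2 (version 1.42.0), the likelihood ratio test, RLE factors, other filters, thresholds and pseudocounts, all 15 oocytes, a replicate block and each oocyte left out. The procedure was also tested on simulated data, and the outcome is not reported here. Python 3.11.15 with numpy 2.4.6 and pandas 2.3.3 was used.

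Members and lists (14 of functions, 3 of markers) were chosen with earlier results of these data known. Values in every oocyte are given for the 3 highest members of each list and outside the lists, the 6 with the widest difference from 24 h, the 6 with the highest level and up to 5 with the largest fitted change in each direction. ATOX1 was named for its difference, and members given only by a difference were named after their values were seen. One member is counted in all totals but is not reported by name here. No sequence is printed, because no sequence of the members was used here. Each oocyte is from its own animal, so p-values measure the spread between animals.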

Additional observations from a re-analysis of the deposited data

Results flagged for a closer look

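In 112 groups of values (the 55 members and their median, at 24 h and after oestrus detection), 9 had an oocyte set apart from the rest by a gap larger than the 95% limit of Dixon's test. Chance gives about 1 in 20 in independent groups that were not selected. The members were chosen for a low mean after oestrus detection and vary together, so that share is no yardstick here and the gaps are given as values only. All 9 were low values of T2.1 among the 4 oocytes after oestrus detection, and T2.1 had the smallest total of that group, 1071109 counts. The part of depth in these gaps was not tested.

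Levels are in log2(CPM + 1). PFDN5, the prefoldin subunit, was at 5.03 in T2.1 and at 6.74 to 6.86 in the other 3 oocytes. HINT1 was at 3.49 against 5.43 to 5.73, and PSENEN, the gamma-secretase subunit, at 2.24 against 4.60 to 4.94. MDGA1, a cell-surface protein of the nervous system, was at 1.93 against 3.19 to 3.39, and SPATS1, a serine-rich protein known from the testis, at 1.93 against 4.60 to 5.10. BLOC1S1 was at 1.52 against 2.94 to 3.22. Listed at 0 in T2.1 were TMEM160 (4.57 to 5.45 in the others), SPC24 of the kinetochore (3.69 to 3.94) and SCG5, a secretory granule chaperone (3.38 to 3.98). For those 3 genes a count of 0 allows up to 2.80 CPM, a level of 1.93, which is below the other 3 oocytes in each case.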

How the results depend on the processing

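The median difference of the members between oestrus detection and 24 h was -2.97 to -2.16 with an oocyte left out, a direction that the choice of members fixes. Between 2 h and oestrus detection it was 3.45 to 3.96 with an oocyte left out, but 2.02 with all 15 oocytes. Between 2 h and 24 h it was 0.74 to 1.61 with an oocyte left out, but -0.68, the other sign, with all 15 oocytes. Without T3.1 only, an alternative added after seeing the data, these were 3.15 and 0.47. The rule found 33 genes without T1.2, 34 without T2.1 and 75 without T1.1, the range over the oocytes left out, and 30 with a difference of at least 2.5.

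Between 2 h and 24 h, calls over all genes went from 0 to 349 with DESeq2, 139 with the likelihood ratio test, 1 without a filter and 927 at an unadjusted p under 0.05. With an oocyte left out they were 0 to 15, the 15 without T1.2. No member was called under any of the 21 alternatives. With a replicate block the calls were 0 for all genes and 0 for members, and the members' median fitted log2 fold change was 0.09, with 29 positive. The numbers do not pair oocytes, since each is from another animal. The deviations of same-numbered oocytes from their group means of log2 CPM correlated at -0.02 to 0.14. With at least 10 counts in every oocyte, 24 of the 29 members left were positive. The share of all genes that were positive is not given for these settings, so nothing is read from the counts. The cause of these changes was not tested.

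With 2 oocytes at 2 h, standard errors of about 1 on the log2 scale limit what can be detected.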
